A study of Mus musculus with 2 samples.

Results

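The desmosomal cadherins of mouse skin were described here as 9 genes, chosen by symbol, of the 56694 genes in the count matrices: the desmogleins Dsg1a, Dsg1b, Dsg1c, Dsg2, Dsg3 and Dsg4 and the desmocollins Dsc1, Dsc2 and Dsc3. Their UMIs, which are counts of captured RNA molecules, were followed across keratinocyte classes of the interfollicular epidermis (IFE), the hair follicle (HF) and the sebaceous gland. Epidermal whole mounts of back skin were taken at postnatal day 2 and measured by single-cell RNA sequencing from the 3′ end of transcripts, in 1 library per genotype. The control library came from Gli2 fl/fl littermates, labelled WT by genotype, and the Gli2EKO library from K14Cre; Gli2 fl/fl mice, in which the keratin 14 promoter drives Cre in keratinocytes from embryonic stages and removes Gli2, a transcription factor of Hedgehog signalling, so that both groups carry the floxed allele. How many mice were pooled in a library is not given in the sources used here. With 1 library per genotype no test was possible, no p-value is given, and differences between the libraries and between the genotypes cannot be told apart. All intervals are 95% and cover counting error only.

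Desmosomes rivet neighbouring keratinocytes together. Desmogleins and desmocollins span the gap between the cells, and inside each cell plakoglobin, plakophilins and desmoplakin tie them to the keratin filaments. In stratified epidermis the isoforms are known to be layered, with Dsg3 and Dsc3 towards the basal side, Dsg1 and Dsc1 towards the surface, and Dsg4 in the hair. Dsg3 and Dsg1 are the targets of autoantibodies in pemphigus, and loss of Dsg4 causes fragile hair.

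After filtering, 3320 control and 2307 Gli2EKO keratinocytes were left, with a median of 12437 and 12910 UMIs per cell and 46116983 and 33399127 UMIs in all. Clusters were formed without the cadherins and their partner genes among the variable genes, and 10 classes were named from markers. Each name means cells that are like that class by its markers (IFE basal-like and so on), and the suffix is dropped here. They were IFE basal cells (389 control and 597 Gli2EKO cells), IFE suprabasal cells (217 and 312), upper HF (466 and 291), outer root sheath or ORS (912 and 528), a class led by Krt6a, Krt79 and Cst6 that is called the Krt6a class (176 and 96), matrix (372 and 146), inner root sheath or IRS (344 and 141), a class marked by Foxq1, Krt75 and Tgm6 that is called HF lineage (73 and 25), hair shaft (73 and 31) and sebaceous gland (43 and 25). A cluster led by Tagln and Acta2 (204 and 91 cells) and another led by Rnf180 and Bmper (51 and 24 cells, at a median of 4778 and 4027 UMIs) stayed without a name. Markers were high in the classes they name: Krt10 was at 21917 and 21426 CPM (UMIs of a gene scaled to a class total of 1000000) in control and Gli2EKO suprabasal cells, Krt71 at 1903 and 4303 CPM in IRS, and Krt35 at 4556 and 5593 CPM in hair shaft. Of the 7 hair shaft markers, 4 were found in at least 10% of the cells of that class, and Krt84 and Krt86, in that order, were at 1.16 and 0 CPM in control and at 0 and 45.1 CPM in Gli2EKO. The Krt6a class scored highest for companion layer markers, but 3 of those 5 markers carried the score. Krt6a was at 996 and 1071 CPM there, while Krt6b was at 0 and 0.897 CPM, Krt16 was at 5.91 and 59.2 CPM, and Krt79 and Cst6 were also high in suprabasal cells. Krt75, known from the companion layer, was at 23.2 and 26.9 CPM in this class, against 487 and 414 CPM in IRS and 434 and 185 CPM in HF lineage. The class is therefore named by its genes and not as companion layer. Gli2 itself was at 83.0 CPM in control and 84.6 CPM in Gli2EKO keratinocytes. The reads lie at the 3′ end and the deleted exons are not given in the sources used here, so this level does not check the labels.

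The 9 genes lie side by side on chromosome 18 (GRCm39, 20093987 to 20737581, a span of 644 kb), in the order Dsc3, Dsc2, Dsc1, Dsg1c, Dsg1a, Dsg1b, Dsg4, Dsg3 and Dsg2. The 3 desmocollins are on the minus strand and the 6 desmogleins on the plus strand. Dsc3 gave 33228 UMIs over the keratinocytes of both libraries, against 8301 for Dsg3, 7412 for Dsg1a, 6410 for Dsg2, 4784 for Dsc1, 2195 for Dsg1b, 711 for Dsg4, 322 for Dsc2 and 8 for Dsg1c. As each UMI is 1 molecule tagged near its 3′ end, these levels were not divided by transcript length. The Dsg1 genes are close copies, and 23.5% of the 89-base stretches of the longest Dsg1a transcript also occur in Dsg1b, while none of those in its last 500 bases does. How reads further from the end were divided between the copies is uncertain, so the sum of Dsg1a, Dsg1b and Dsg1c is given as Dsg1 where the split does not matter. Dsg1c never passed 2 UMIs in a class of a library and is not discussed further.

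**Figure D1:**
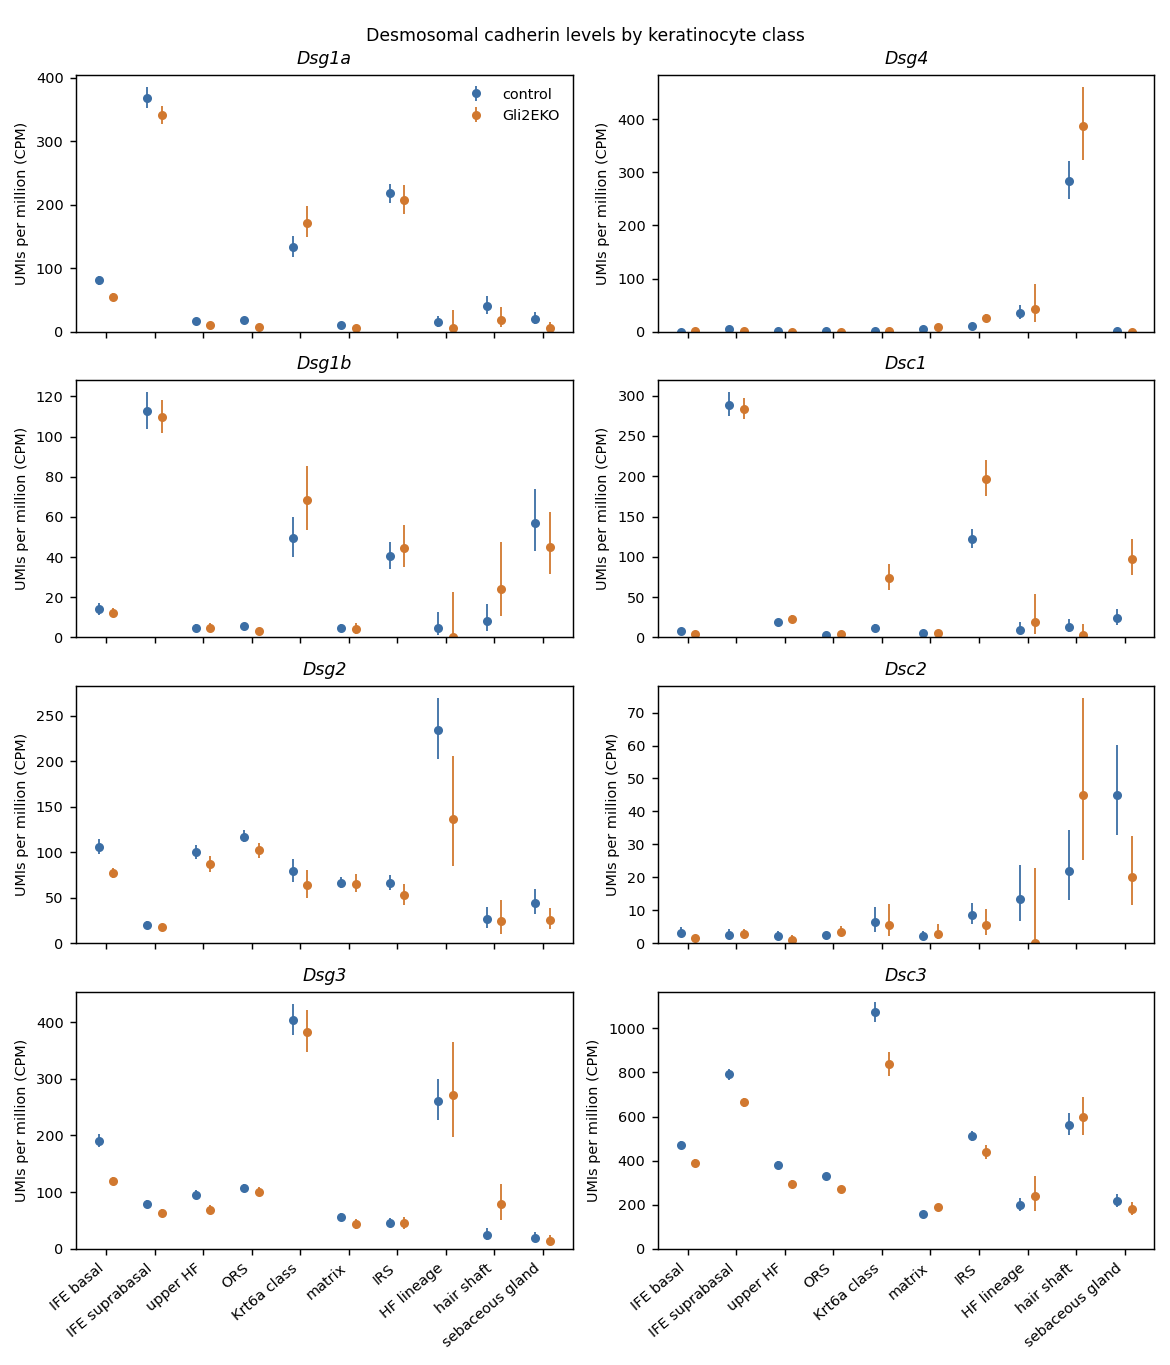
Level of each cadherin in CPM (y axis, from 0, with a scale of its own per gene) in 10 keratinocyte classes (x axis), with control in blue, Gli2EKO in orange and bars for 95% Poisson intervals. Dsg1a, Dsg1b and Dsc1 peak in suprabasal cells, Dsg3 and Dsc3 in the Krt6a class and Dsg4 in the hair shaft.

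A background for these levels was taken from other cell types. Whether it comes from free RNA was not tested. In fibroblasts, melanocytes, immune and mural cells, which should lack most of these genes, the highest level was 27.2 CPM for Dsc3, 13.2 for Dsg1a, 11.0 for Dsc1, 9.84 for Dsg3, 8.80 for Dsg1b, 5.78 for Dsg2, 1.22 for Dsc2 and 1.07 for Dsg4. The highest levels of Dsg1a, Dsg1b and Dsc1 came from 37 Gli2EKO immune cells and rest on 6, 4 and 5 UMIs. In fibroblasts (control and Gli2EKO) these genes were at 2.25 and 2.21, 0.657 and 0.882, and 2.16 and 0.735 CPM. In both libraries, Dsg1b in upper HF, ORS and matrix and Dsg1a in matrix were no higher than the highest levels. The same held for Dsc1 in IFE basal, ORS and matrix cells, and for Dsg1a in Gli2EKO upper HF and ORS. All of these were above the fibroblast levels.

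In IFE basal cells, which hold the dividing layer, the desmogleins were a mixture. Dsg3, the classical basal desmoglein, was at 191 CPM in control (interval 180.0 to 202) and 119 in Gli2EKO (112 to 127). Dsg2, best known from simple epithelia and heart, was at 106 and 76.9 CPM, and Dsg1a at 81.0 and 55.1 CPM. Dsg3 thus made up 48.7% of control and 45.2% of Gli2EKO desmoglein UMIs, Dsg2 27.1% and 29.2%, and Dsg1 24.3% and 25.5%. Dsg4, the hair desmoglein, had 0 UMIs of 6256066 in control (interval 0 to 0.590 CPM) and 3 UMIs in Gli2EKO. Among the desmocollins, Dsc3 was almost alone, with 97.8% and 98.5% of their UMIs at 469.9 and 391 CPM.

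In IFE suprabasal cells the desmogleins were exchanged, whereas a desmocollin was added. Dsg1a stood at 369 and 341 CPM in control and Gli2EKO, and was higher than in basal cells by 2.19 and 2.63 on the log2 scale. Dsg1b was at 113 and 109.7 CPM, against 14.1 and 12.1 CPM in basal cells. Dsg2 was at 20.1 and 17.3 CPM, lower by -2.40 and -2.15. Both Dsg1 copies were thus higher and Dsg2 lower, in both libraries. Dsg3 was at 78.7 and 63.9 CPM, a log2 difference of -1.28 and -0.90, so that it passed the 2-fold limit in control only. Dsg1 then held 82.4% (81.0 to 83.7) of control and 84.5% (83.3 to 85.7) of Gli2EKO desmoglein UMIs.

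Dsc1, the desmocollin of the upper layers, went from 7.35 CPM in basal to 289 CPM in suprabasal control cells and from 4.64 to 283 CPM in Gli2EKO, log2 differences of 5.30 and 5.93. Dsc3 did not give way. It was at 792 and 664 CPM, higher than in basal cells by 0.75 and 0.76. Dsc1 was therefore 26.7% and 29.8% of the desmocollin UMIs of the whole suprabasal class. Of the 6 cadherins with enough UMIs for this contrast, 3 were higher and 1 lower by 2-fold in both libraries, beside 20.3% of all genes tested that passed the same limit in either direction.

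**Figure D2:**
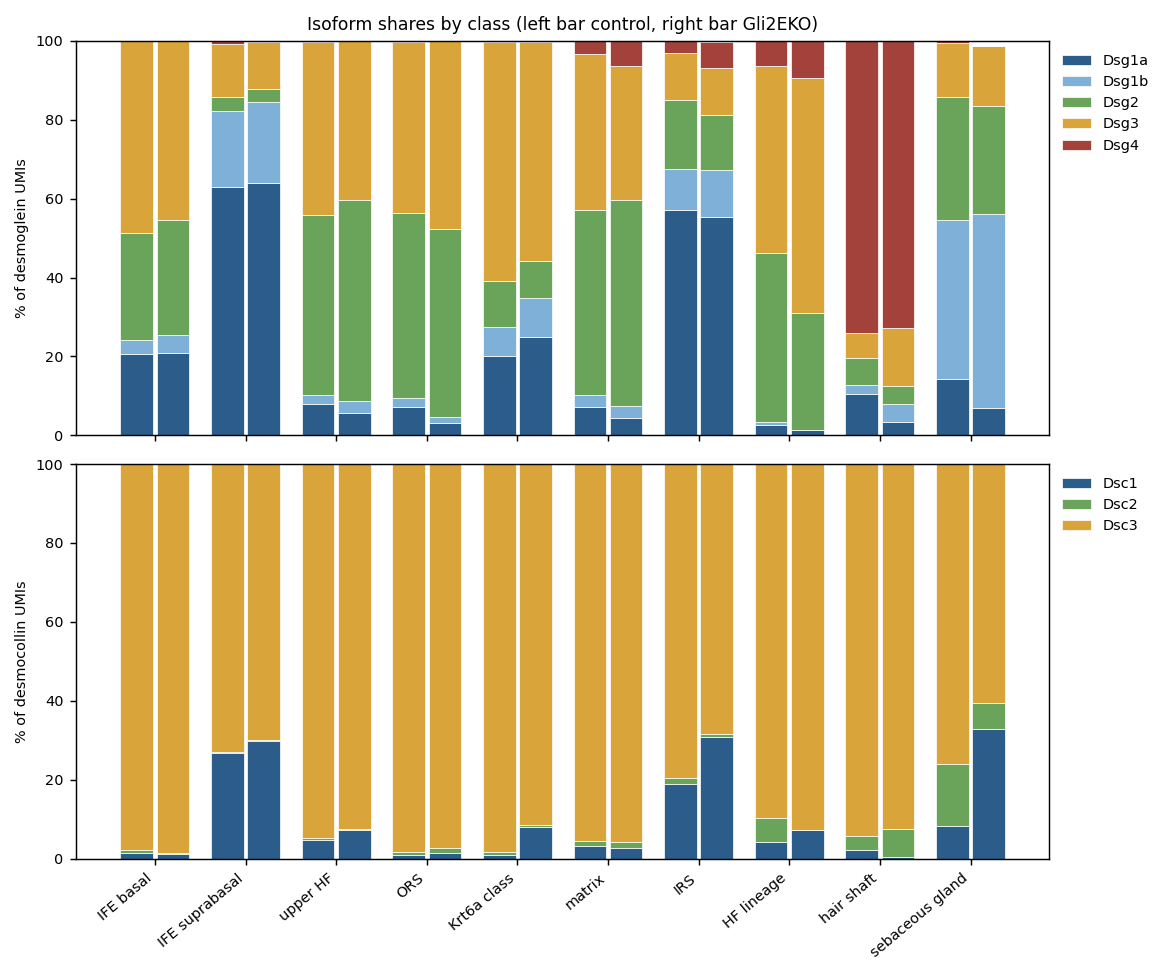
Share of desmoglein UMIs (top, %) and of desmocollin UMIs (bottom, %) taken by each isoform in 10 keratinocyte classes, with control as the left and Gli2EKO as the right bar of each pair. Dsg1c is not drawn, so a bar may end just under 100%; Dsg1 holds 82.4% and 84.5% in suprabasal cells and Dsg4 74.0% and 72.9% in hair shaft.

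To follow the exchange, IFE cells were binned by the share of Krt1 and Krt10, the suprabasal keratins, among UMIs of Krt1, Krt10, Krt5 and Krt14. The cells at 90% and over were split by loricrin, a cornified envelope protein, at 0.1% of a cell's UMIs. Dsg1 took 26.4% and 27.7% of desmoglein UMIs (control and Gli2EKO) under 10%, 52.0% and 64.1% at 10 to 50%, 72.6% and 80.3% at 50 to 90%, and 94.4% and 93.4% at 90% and over with low loricrin. Dsg2 went first: its share was already 10.2% and 8.42% in the 10 to 50% bin, from 26.7% and 28.5% in the bin before. Dsg3 was still at 37.0% and 27.4% there, and at 3.84% and 4.94% in the loricrin-low cells at 90% and over. Between 10 and 90% the Dsg1 share was higher and the Dsg3 share lower in Gli2EKO, with intervals that did not overlap. In the 10 to 50% bin Dsg1 was at 261 and 262 CPM, Dsg2 at 51.1 and 34.4 CPM and Dsg3 at 186 and 112 CPM. The gap depended on the bin limits. With limits at 20, 50 and 80% the Dsg1 share was 62.2% (56.3 to 67.8) and 64.5% (60.2 to 68.6) in the second bin and 71.5% (67.7 to 75.1) and 77.5% (73.5 to 81.1) in the third, so the intervals overlapped in both, as did those of Dsg3. Dsg3 was then at 148 and 117 CPM and Dsg1 at 300.3 and 275 CPM in the second bin.

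The desmocollins changed over later. Dsc1 was 5.23% and 3.78% of desmocollin UMIs under 10%, 6.39% and 12.2% at 10 to 50%, and 19.6% and 18.8% at 50 to 90%. It was 29.6% and 38.0% in loricrin-low cells at 90% and over, where Dsc3 was still at 899 and 655 CPM. Under 10% Dsc1 had 174 and 142 UMIs, against 46 and 41 in the IFE basal class. That bin thus also held suprabasal class cells with Dsc1. In loricrin-high cells Dsc1 reached 868 and 922 CPM, Dsc3 stood at 100.5 and 144 CPM, and Dsc1 held 89.6% (84.7 to 93.4) and 86.5% (82.3 to 90.1). This last bin holds only 7 cells of each library. Dsc1 outnumbered Dsc3 in 4 of the 7 control and 6 of the 7 Gli2EKO cells, and the cell with the most Dsc1 gave 30.5% and 21.7% of its UMIs. With the loricrin limit at 0.01%, set after the values were seen, the bin held 17 and 15 cells and Dsc1 73.1% and 72.7%.

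**Figure D3:**
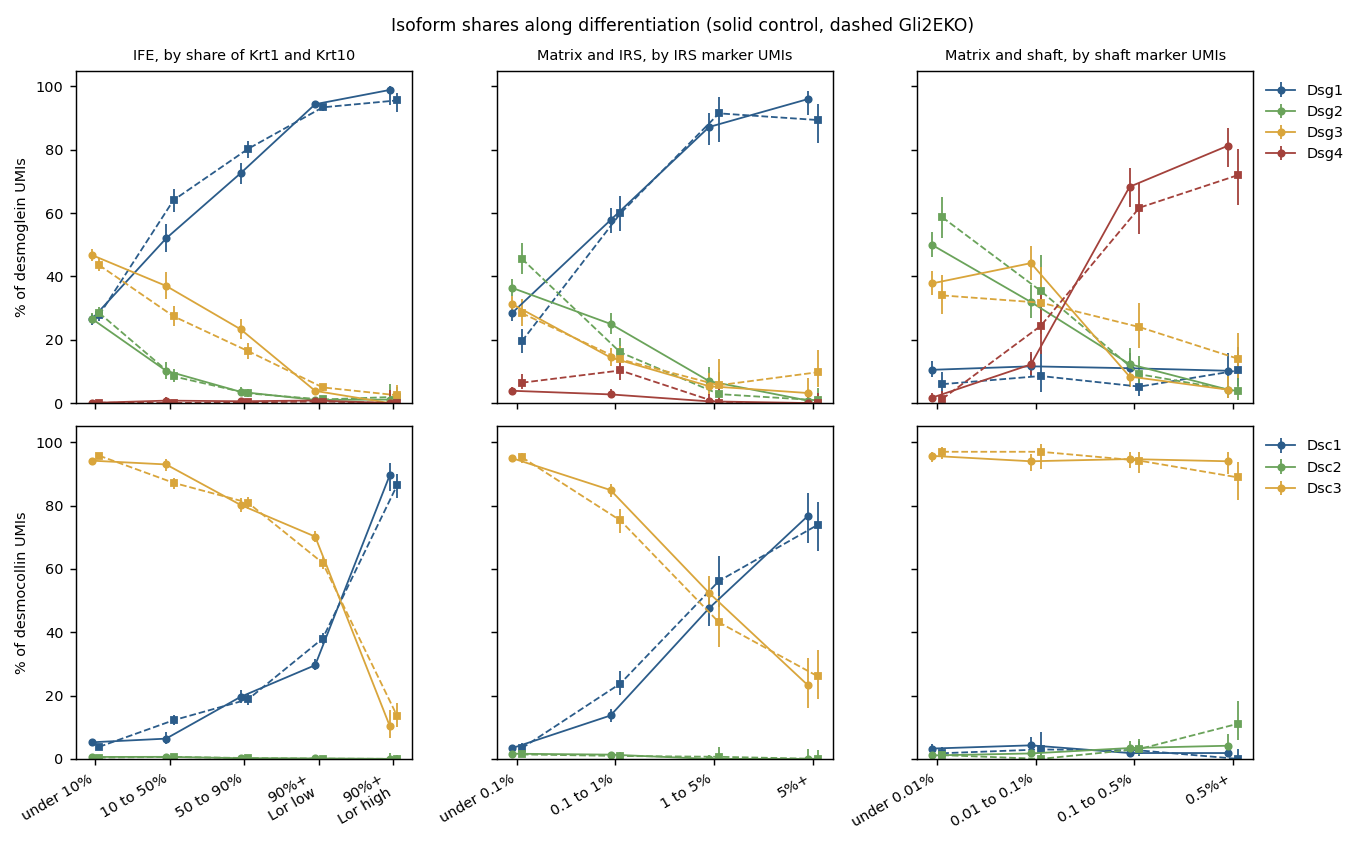
Isoform shares (y axis, % of desmoglein UMIs on top and of desmocollin UMIs below) along bins of cells (x axis). IFE bins are ordered by suprabasal keratins, and those of matrix and IRS cells by IRS markers. Matrix, shaft and Rnf180 cluster cells are ordered by hair shaft markers. Solid lines are control, dashed lines Gli2EKO, bars 95% binomial intervals. From the first to the last bin, the Dsg1 share rises and the Dsg2 and Dsg3 shares fall in the IFE and IRS. Dsc1 outnumbers Dsc3 in their last bins and, in Gli2EKO IRS, already at 1 to 5%. In the shaft Dsg4 rises while Dsc3 stays at 88.9% or more.

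Single cells carried several isoforms. After each cell was thinned to 2000 UMIs, Dsg3 was found in 28.1% of control and 20.5% of Gli2EKO basal cells and Dsg1 in 18.6% and 10.6%. Both were found in 5.93% and 2.19%, against 5.21% and 2.18% if the 2 were independent. In suprabasal cells Dsg1 was found in 58.1% and 55.4%, Dsg3 in 14.7% and 13.8%, and both in 8.29% and 8.33%, against 8.56% and 7.64% if independent. The independent values lay within the intervals of the observed shares, so avoidance between the isoforms within a class was not detectable at this depth. Without thinning, 55.3% and 53.5% of suprabasal cells had UMIs of both, at medians of 21032 and 19104 UMIs per cell. As background, Dsg3 was found in 1.08% of 93 control immune cells and in 0 of 36 Gli2EKO immune cells, which allows a share of up to 8.33% (taken as 3 counts of the total), and Dsg1 in 0 of 93 (up to 3.23%) and 2.78% of 36. Immune cells had medians of 9942 and 12756 UMIs before thinning.

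In the undifferentiated follicle the mixture was Dsg2 and Dsg3. In ORS, the outer wall of the follicle, Dsg2 was at 117 and 102 CPM (control and Gli2EKO) and Dsg3 at 108 and 101 CPM, which gave shares of 46.8% and 47.8% for Dsg2 and of 43.3% and 47.6% for Dsg3. Upper HF cells were alike, with Dsg2 at 99.8 and 86.7 CPM and Dsg3 at 95.4 and 68.3 CPM. Matrix cells, the dividing cells of the bulb, had 66.5 and 65.5 CPM of Dsg2 and 56.6 and 43.0 CPM of Dsg3. Dsg1 was 10.3% of desmoglein UMIs or less in these 3 classes, and Dsc3 was 92.6% or more of their desmocollin UMIs.

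The ORS was not uniform. In 1 of its 3 clusters, led by Adamts19 and Nlgn1, Dsg3 was at 294 and 220.0 CPM, against 67.0 and 62.7 CPM in the cluster led by Spon1 and Sfrp1. Dsg2 had the opposite order, with 97.6 and 80.7 CPM in the former and 139.6 and 124 CPM in the latter. The leading Dsg isoform of the ORS thus depended on the cluster, in both libraries.

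The Krt6a class held the highest Dsg3 of the 10 named classes, 404 CPM (377 to 433) in control and 383 (348 to 421) in Gli2EKO. Dsg3 made up 60.5% and 55.5% of their desmoglein UMIs, and Dsg1 stood at 183 and 241 CPM. Dsc3 was also highest here, at 1073 and 839 CPM. Against the ORS, 5 of the 6 cadherins tested (Dsg1a, Dsg1b, Dsg3, Dsc1 and Dsc3) were higher by 2-fold in both libraries, beside 14.6% of all genes past this limit in either direction. Dsg2 was the exception, at 78.8 and 63.7 CPM. Control Dsc1 in the Krt6a class, 11.3 CPM (7.18 to 17.0), lay near the highest background level of 11.0 CPM, and Gli2EKO Dsc1 was at 6.95 CPM without integration.

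The IRS, which moulds the growing hair, repeated the Dsg1 and Dsc1 pattern. Dsg1a was at 218 and 207 CPM, higher than in matrix by 4.40 and 5.23 on the log2 scale, and Dsc1 at 122 and 197 CPM, higher by 4.54 and 5.16. Dsc3 was at 512 and 438 CPM, higher by 1.69 and 1.23. Of the 7 cadherins tested between IRS and matrix, 5 were higher by 2-fold in both libraries, beside 10.1% of all genes in either direction, and Dsg2 and Dsg3 passed in neither direction. With the Rnf180 cluster counted as matrix, a setting added after the values were seen, Dsg4 was at 14.7 and 24.9 CPM in matrix, IRS differed from it by -0.41 and -0.01, and 4 of the 7 were higher. Dsg1 was 67.7% and 67.4% of desmoglein UMIs.

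Matrix and IRS cells were then binned by the UMIs of 7 keratin and trichohyalin genes of the IRS. The bin under 0.1% held 479 and 201 cells, more than the 372 and 146 matrix cells. It thus also held cells of the IRS class with few UMIs of these genes. Dsg1 rose from 28.4% and 19.5% of desmoglein UMIs in cells under 0.1% to 57.8% and 59.9% at 0.1 to 1% and to 87.2% and 91.5% at 1 to 5%. Dsc1 rose from 3.37% and 3.35% of desmocollin UMIs to 13.7% and 23.8% and to 47.6% and 56.2% over the same bins. At 5% and over it was 76.7% and 73.9%, in 7 and 5 cells, where Dsc1 outnumbered Dsc3 in 5 and 3 cells and a single Gli2EKO cell gave 60.6% of the Dsc1 UMIs. As in the IFE, the desmoglein shares changed before those of the desmocollins. From the first bin to the last, Dsg2 was at 74.6, 54.8, 30.3 and 9.85 CPM in control. In Gli2EKO it was at 70.9, 49.8, 9.91 and 6.27 CPM. Dsg3 did not fall steadily, at 64.1, 31.6, 23.3 and 39.4 CPM in control and 44.2, 43.0, 19.8 and 69.0 CPM in Gli2EKO. Its last values rest on 4 and 11 UMIs. The follicle bins were set after the values were seen.

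In the hair shaft Dsg4 had the highest share of desmoglein UMIs. Dsg4 was at 284 CPM in control (249 to 321) and 388 CPM in Gli2EKO (324 to 461), against 4.75 and 7.89 CPM in matrix, log2 differences of 5.90 and 5.62. It was found in 61 of 73 and 27 of 31 cells and took 74.0% and 72.9% of desmoglein UMIs, or 47.7% and 44.9% with classes taken from the scores of single cells. With the Rnf180 cluster counted as matrix the log2 differences were 4.27 and 3.96. Hair shaft cells were 1.87% and 0.996% of keratinocyte UMIs and gave 54.2% and 49.8% of all Dsg4. Outside this class Dsg4 was at 251 and 393 CPM in the small cluster led by Rnf180, at 35.1 and 43.3 CPM in HF lineage and at 11.1 and 24.8 CPM in IRS.

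The desmocollin of the shaft stayed Dsc3, at 563 and 598 CPM and 94.2% and 92.6% of desmocollin UMIs. Dsc2, the form of simple epithelia and heart muscle, was low, at 22.0 and 45.1 CPM from 19 and 15 UMIs. Of the 4 cadherins tested against matrix, Dsg4 and Dsc3 were higher and Dsg2 lower by 2-fold in both libraries, beside 18.5% of all genes. Along bins of hair shaft markers, over matrix, shaft and Rnf180 cluster cells, Dsg4 went from 1.73% and 1.28% of desmoglein UMIs under 0.01% to 12.2% and 24.4%, 68.3% and 61.7%, and 81.3% and 72.0% at 0.5% and over. Dsg2 went from 68.7 to 16.2 CPM in control and from 67.5 to 19.4 CPM in Gli2EKO between the first and last bin. Over the 4 bins Dsg3 was at 52.1, 86.7, 28.2 and 16.2 CPM in control and at 39.1, 60.1, 123 and 72.6 CPM in Gli2EKO. Dsg3 in shaft against matrix was -1.22 in control and 0.86 (0.19 to 1.49) in Gli2EKO. The Dsg1 share stayed between 5.19% and 11.6%. Dsg1 and Dsc1, both high in the IRS, were at 48.6 and 42.1 CPM and at 12.7 and 3.01 CPM in the shaft.

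HF lineage cells had another balance between the subfamilies. Their desmogleins, mainly Dsg3 (261 and 272 CPM) and Dsg2 (235 and 136 CPM), outnumbered the desmocollins 2.47 times in control and 1.76 times in Gli2EKO. In the other 9 named classes this ratio was between 0.307 and 0.856. In the unnamed clusters it was 1.16 and 1.15 (Rnf180) and 0.874 and 1.02 (Tagln), so it passed 1 in the Rnf180 cluster too. Dsc3 was at 199.6 and 241 CPM in HF lineage. The Gli2EKO values rest on 74 desmoglein and 42 desmocollin UMIs in 25 cells.

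In sebaceous gland cells more Dsg1 UMIs were assigned to Dsg1b than to Dsg1a, though how reads were divided between the copies is uncertain. Dsg1b had 57 and 36 UMIs (57.0 and 45.1 CPM) and Dsg1a 20 and 5, so Dsg1b held 74.0% (62.8 to 83.4) and 87.8% (73.8 to 95.9) of their sum. In the other classes with at least 50 such UMIs in a library, Dsg1b held 14.8% to 32.8%. The gland also had the highest Dsc2 level in control, 45.0 CPM, with 20.1 CPM in Gli2EKO. These come from 43 and 25 cells, and Dsg1b UMIs were in 12 and 10 of them.

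Over 20 points, 10 classes in each library, the members' patterns were compared by the Pearson correlation of log2(CPM + 10). This is a description, since points of a library share its depth and background. Dsg1a and Dsg1b had r = 0.78, Dsg1a and Dsc3 0.80, Dsg1b and Dsc1 0.78, Dsg1a and Dsc1 0.71, Dsg2 and Dsg3 0.59, and Dsg1b and Dsg2 -0.68. Among 5900 other genes, Dsc3 was most like Jup (plakoglobin, r = 0.93), Dsp (desmoplakin, 0.93) and Hes1 (0.90). Dsg4 was most like Dclk3 (0.99), S100a3 (0.98) and Usp16 (0.98). As Dsg4 was far higher in hair shaft than in the other named classes, its r rests largely on the hair shaft points. S100a3 is also one of the markers that named this class. For Dsg1a the nearest genes were Plxdc2 (0.92), Perp (0.92) and Pof1b (0.88), for Dsg1b Sult2b1 (0.89), Elovl7 (0.88) and Rhov (0.88). Dsg2 was nearest to Dzip1l (0.91), Tmsb10 (0.91) and Gpsm2 (0.90), Dsg3 to Chmp4c (0.91), Atxn1 (0.88) and Plch2 (0.87), and Dsc1 to Tmem45a (0.89), Vps53 (0.89) and 2310046K23Rik (0.87).

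The partners of the cadherins moved in part with them. Of 9 plaque genes, 8 were tested between suprabasal and basal IFE, and 3 were higher by 2-fold in both libraries, beside 20.3% of all genes in either direction: Jup (722 and 722 CPM against 294 and 261), Evpl (envoplakin) and Perp, a membrane protein of desmosomes. Pkp4, a plakophilin relative, was lower, at 58.6 and 56.2 CPM against 159.7 and 183. Between IRS and matrix 7 of 8 plaque genes were higher (10.1% of all genes), with Dsp at 1192 and 1104 CPM against 279.8 and 294. Between hair shaft and matrix 4 of 7 were higher (18.5%), and between the Krt6a class and ORS 5 of 8 (14.6%), with Dsp at 3232 and 2643 CPM against 745 and 655. None of these last 3 contrasts had a lower plaque gene.

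The classical cadherins and their catenins form adherens junctions. Of 5 adherens junction genes 1 passed in each of the first 3 contrasts, beside the same shares of all genes: Cdh3 (P-cadherin) was lower in suprabasal than basal cells, at 45.3 and 28.5 CPM against 136 and 113, and Cdh1 (E-cadherin) was higher in IRS and hair shaft than in matrix. In the Krt6a class 2 of 5 passed, beside 14.6% of all genes: Cdh3 was lower and Ctnnd1 higher than in ORS. Of 5 tested genes of the shedding of desmosomes at the surface, 4 were higher in suprabasal cells, beside 20.3% of all genes in either direction. They were Klk5 and Klk7, proteases, Spink5, their inhibitor, and Cdsn (corneodesmosin). Klk7 was at 487 and 344 CPM in suprabasal and 604 and 765 CPM in Krt6a class cells. In IRS and hair shaft 1 of 2 and 1 of 1 of these genes were higher than in matrix, beside 10.1% and 18.5% of all genes. These counts are too small to read. In the Krt6a class 4 of 4 were higher than in ORS, beside 14.6%.

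Between the libraries, the cadherins were compared per class, as the classes were present in different shares: IFE cells were 11.7% and 6.54% (basal and suprabasal) of control keratinocytes and 25.9% and 13.5% of Gli2EKO keratinocytes. Over all keratinocytes Dsc1 was past 1.5-fold (log2 Gli2EKO over control 0.66, interval 0.58 to 0.75), as 1 of 8 cadherins tested, beside 14.1% of all genes. With clusters weighted by their control shares the Dsc1 value was 0.30 and no cadherin passed. Dsg1a went from 0.23 to -0.25 under that weighting. The totals over all keratinocytes thus moved with the class shares.

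In IFE basal cells Dsg3 was lower in Gli2EKO by -0.68 (-0.80 to -0.56), at 119 against 191 CPM. It was lower in all 5 basal clusters, which ran from 127 to 239.5 CPM in control and from 97.5 to 154 CPM in Gli2EKO. Dsg1a and Dsg2 differed by -0.56 and -0.46 and Dsc3 by -0.26, with intervals below 0. Dsg3 and Dsc1 were the 2 of 6 cadherins past 1.5-fold, beside 8.34% of all genes. The Dsc1 value (-0.67) rests on 46 and 41 UMIs, at levels below the highest background level. A pair of basal clusters was led by Atf3 and other stress genes and held 142 control and 171 Gli2EKO cells. Dsg3 differed by -0.66 in these and by -0.62 in the other 3 clusters.

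In IFE suprabasal cells none of 6 cadherins passed 1.5-fold, beside 9.57% of all genes, with the largest value at -0.30 for Dsg3. Loricrin was at 5054 CPM in control and 253 CPM in Gli2EKO suprabasal cells. Over the 13 suprabasal and granular markers together the level was 66484 and 53807 CPM, with 3 of 13 higher in Gli2EKO. Cdsn was at 59.0 CPM in control and 7.99 CPM in Gli2EKO (-2.89). Their part in these values was not tested.

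In ORS Dsg1a was lower in Gli2EKO by -1.47 (-2.00 to -0.98), at 6.60 against 18.3 CPM from 40 and 215 UMIs, and lower in each of its 3 clusters. Dsg1b was lower by -0.84. These were 2 of 6 cadherins past 1.5-fold, beside 6.89% of all genes. Both Gli2EKO levels were below the highest background level, which rests on few UMIs, and above that of fibroblasts. In upper HF 1 of 6 passed (Dsg1a, -0.82), beside 12.3%, and in matrix 2 of 5 (Dsg1a, -0.90, and Dsg4, 0.73), beside 11.7%. The interval of Dsg4 in matrix held 0 (-0.16 to 1.59), and its value was 0.48 without the top cell of each library. With the Rnf180 cluster counted as matrix it was 0.75 (0.28 to 1.22). Both matrix levels of Dsg1a (10.3 and 5.52 CPM) lay between the fibroblast level and the highest background level. So did both ORS levels of Dsg1b (5.62 and 3.14 CPM).

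In the Krt6a class Dsc1 was at 73.6 CPM in Gli2EKO and 11.3 CPM in control, a log2 value of 2.70 (2.02 to 3.43), as 1 of 6 cadherins past 1.5-fold, beside 13.1% of all genes. Its 82 Gli2EKO UMIs were in 16 of 96 cells, 17 of them in 1 cell. The 13 suprabasal and granular markers were at 2443 CPM in Gli2EKO and 1122 CPM in control cells of the class, with 9 of 13 higher, and their part was not tested. Cdsn was higher (2.60, at 98.7 against 16.3 CPM) and Spink5 lower (-1.18). The Dsc1 value depended on the clustering, as it was 0.95 at resolution 1 and -1.22 without integration.

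In IRS Dsc1 was higher in Gli2EKO by 0.69 (0.48 to 0.90) and Dsg4 by 1.16 (0.49 to 1.82), as 2 of 7 cadherins, beside 17.9% of all genes. The Dsc1 value was short of 1.5-fold in 4 of 7 alternatives, at 0.40 to 0.57, and Dsg4 was 0.98 (-0.03 to 1.99) in cells of at least 5000 UMIs. Without the cell richest in Dsc1 in each library the Dsc1 value was 0.53 (0.30 to 0.76), short of 1.5-fold. The 8 IRS markers were at 7543 CPM in control and 16642 in Gli2EKO, 7 of 8 higher, as sums over the class. These sums do not show how many cells held the markers. Of 344 and 141 IRS and 372 and 146 matrix cells, 32 and 11 were in the bin of 1 to 5%. The bin of 5% and over had 7 and 5 cells, with 101474 and 159412 UMIs. Within bins of IRS markers Dsc1 was at 57.6 and 128 CPM (control and Gli2EKO) at 0.1 to 1%, at 371 and 426 CPM at 1 to 5%, at 8.87 and 8.55 CPM under 0.1% and at 907 and 621 CPM at 5% and over. Of 4 surface shedding genes 3 were higher in Gli2EKO IRS: Klk5 (2.19), Klk7 (2.04) and Spink5 (1.74). The 7 hair shaft markers were at 121 and 439 CPM in IRS, and Dsg4 UMIs were in 23 of 344 and 9 of 141 cells. Without integration the Dsg4 value was 0.42 with an interval from -0.33 to 1.15. The part of these markers and genes in the differences was not tested.

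In hair shaft 2 cadherins had enough UMIs, Dsg4 (0.45, 0.13 to 0.77) and Dsc3 (0.09), and neither passed, beside 15.1% of all genes. Dsg4 was 0.33 (-0.01 to 0.66) without the cell with most Dsg4 UMIs in each library. Shaft markers were at 7371 CPM in control and 20121 CPM in Gli2EKO, with 6 of 7 higher. Within the bin of 0.5% and over, Dsg4 was at 312 and 373 CPM. Dsg3 was at 24.3 CPM in control and 78.2 CPM in Gli2EKO, from 21 and 26 UMIs, under the minimum of 50.

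In sebaceous gland 3 of 5 passed, beside 25.4% of all genes: Dsc1 was higher (97.8 against 24.0 CPM, 2.03), and Dsg2 (-0.81) and Dsc2 (-1.17) were lower. One Gli2EKO cell held 39.7% of the Dsc1 UMIs, and without the top cell of each library the value was 1.90. The Dsg2 value was -1.33 without its top cells. In HF lineage 1 of 3 passed (Dsg2, -0.79), beside 20.9%. In the Tagln cluster 2 of 4 passed, Dsg1a (-2.23, 10.2 against 47.9 CPM) and Dsc3 (-0.59), beside 14.0%, and in the Rnf180 cluster 1 of 3 (Dsg4, 0.65), beside 22.9%. The Gli2EKO level of Dsg1a in the Tagln cluster rests on 8 UMIs. It was below the highest background level of 13.2 CPM and above that of fibroblasts.

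**Figure D4:**
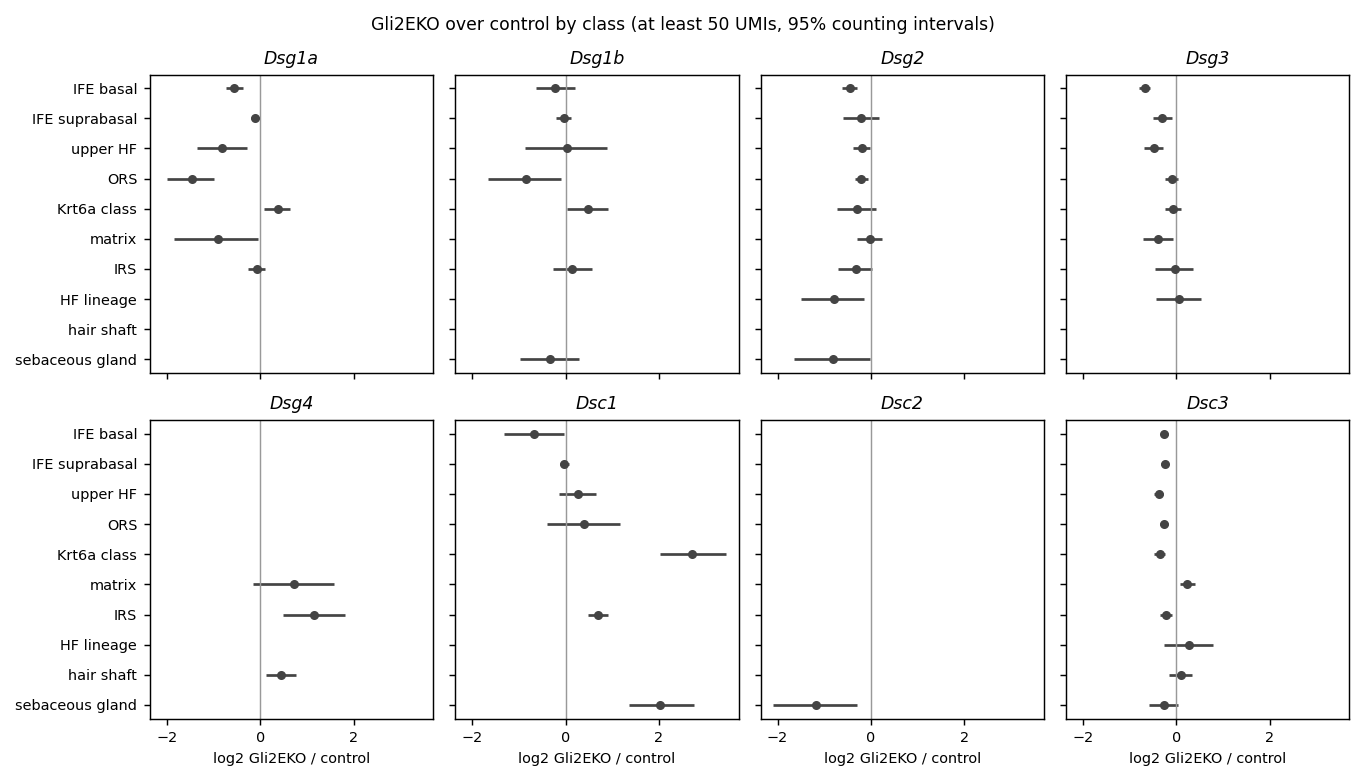
Log2 ratio of Gli2EKO over control (x axis) for each cadherin and keratinocyte class (y axis), with 95% counting intervals, drawn where both libraries together had at least 50 UMIs; the line at 0 is no difference. Dsg3 in IFE basal cells (-0.68) and Dsg1a in ORS (-1.47) lie below 0, and Dsc1 in the Krt6a class (2.70), sebaceous gland (2.03) and IRS (0.69) above it.

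Across classes, the intervals of Dsg2 lay below 0 in 5 of 9 classes tested and above 0 in none, those of Dsg3 below in 4 of 8 and above in none, and those of Dsc3 below in 6 of 10 and above in 1, the matrix (0.23). Dsg1a was below in 5 of 7 and above in 1, the Krt6a class. Dsc1 was below in 1 of 7 and above in 3. The share of all genes with intervals that left out 0 is not given here, so these counts do not set the cadherins apart. The median over the cadherins was below that over all genes tested in IFE basal (-0.51 and -0.03), ORS (-0.24 and -0.04), suprabasal (-0.17 and -0.06), upper HF (-0.29 and -0.08) and sebaceous gland (-0.34 and -0.15). It was above in the Krt6a class (0.14 and -0.04), matrix (-0.02 and -0.06), IRS (-0.04 and -0.13), HF lineage (0.06 and -0.03) and hair shaft (0.27 and -0.02).

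Among the partner genes over all keratinocytes, 1 of 9 plaque genes passed 1.5-fold between the libraries, beside 14.1% of all genes: Pkp2 (plakophilin 2, -0.99, at 2.72 against 5.42 CPM). None of 5 adherens junction genes passed, with Cdh3 at -0.54, and none of the 5 surface shedding genes tested. In IFE basal cells, where Dsg3 was lower, none of 8 plaque genes and none of 5 adherens junction genes passed, beside 8.34% of all genes, with medians of -0.14 and -0.26. Dsp was at 1014 against 1445 CPM there (-0.51). Of 4 surface shedding genes 2 were lower in Gli2EKO basal cells, Klk7 (-1.20) and Klk5 (-0.77).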

How the data were processed

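The authors deposited, for each of 2 libraries, a filtered matrix of UMI counts per gene and barcode, as raw counts. Per the study's methods they were made by Cell Ranger 9.0.1, with GRCm39 as genome and a GENCODE gene set. The control matrix held 6326 barcodes and 71021773 UMIs, the Gli2EKO matrix 4296 and 48866478, and 0 barcodes occurred in both. The members and gene lists were chosen with earlier results of these data known. Groups came from the submitters' labels.

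The study's limits on cells were applied: between 1000 and 8000 genes with a UMI, and mitochondrial UMIs below 15%. The study's scDblFinder was not run. Scrublet in scanpy 1.11.5 scored doublets, and the 8% of cells with the highest score in each library were removed, which left 4456 and 3093 cells. Its automatic threshold marked 260 and 5 cells. Seurat 5.3.0 (R 4.3.3) clustered all cells and then the keratinocytes, with 2000 variable genes, 20 components, a rewritten Harmony and resolution 0.5. The 9 cadherins and the listed partner genes were left out of the variable genes. A cluster took the class with the highest mean log2(CPM + 10) over its markers, relative to all clusters, at 0.5 or more and 0.3 above the next. At least 3 of its markers had to be found in 10% of its cells, with no more markers of another class among its 10 leading genes. Clusters near to 2 classes were split at resolution 0.3, and a part kept a name only if it was 1 of those 2 classes, so the Rnf180 cluster, which scored as matrix (1.18), stayed unnamed. The class that scored as companion layer is called the Krt6a class here. These limits were chosen after the data were seen.

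UMIs were summed per class and library into CPM with exact Poisson intervals (SciPy 1.17.1). Shares carry Clopper-Pearson intervals and ratios exact conditional binomial intervals. Ratios between libraries used genes with at least 50 UMIs in both together and a limit of 1.5-fold. Contrasts between classes used at least 50 UMIs in each library and 2-fold in both. The genes named are the 9 members, the listed markers and partner genes, and for each member the 3 genes most like it with at least 50 CPM in a class of each library. Detection was compared after thinning to 2000 UMIs. Alternatives were other doublet settings, resolution 1, no integration, listed genes kept, classes by cell score, cells of at least 5000 UMIs, other bins and thinning, a minimum of 20 UMIs, and weighting by control shares. Gene coordinates were taken from another GENCODE release on GRCm39, in which 9 of 9 genes matched by identifier. The interval functions were tested on simulated data.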

Additional observations from a re-analysis of the deposited data

Results flagged for a closer look

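Dsc1 differed between classes in its Gli2EKO over control value. The log2 ratio was 2.70 in the Krt6a class, 2.03 in sebaceous gland and 0.69 in IRS, and -0.67 in IFE basal cells, each past 1.5-fold with a counting interval that left out 0. The difference between the classes was not tested, as there is 1 library per genotype. The Krt6a class value turned to -1.22 without integration, and the IFE basal value rests on levels of 7.35 and 4.64 CPM, no higher than the 11.0 CPM of Dsc1 in Gli2EKO immune cells, and its interval reached 0 without the top cell of each library (-0.65, -1.33 to 0.03). In the sebaceous gland the value was between 2.00 and 2.16 over the alternatives, from 24 and 78 UMIs. In IRS it was short of 1.5-fold without the cell richest in Dsc1 of each library (0.53), at resolution 1 (0.56), without integration (0.56), in cells of at least 5000 UMIs (0.57) and with classes from cell scores (0.40).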

How the results depend on the processing

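No paired analysis was possible because each genotype has 1 library, and for the same reason no library could be left out. Values are given as control and Gli2EKO. With Scrublet's automatic threshold the Dsg1 share of desmoglein UMIs in IFE basal cells was 21.9% and 23.6%. In suprabasal cells it was 80.4% and 82.9% at resolution 1, 80.8% and 81.4% with classes from cell scores, and 82.6% in Gli2EKO without integration. In IRS it was 73.0% in control at resolution 1, 73.0% and 72.2% without integration, and 74.8% and 74.9% in cells of at least 5000 UMIs. The Dsg4 share in hair shaft was 47.7% and 44.9% with classes from cell scores. The Dsc1 share of desmocollin UMIs in suprabasal cells was 25.3% in control at resolution 1, 25.5% in control without integration, and 24.6% and 27.8% with cell scores. In IRS it was 21.5% in control cells of at least 5000 UMIs and 24.4% and 33.9% with cell scores. The Dsg1 share of the second bin was 62.2% in control with limits at 20, 50 and 80%. Cells with both Dsg3 and Dsg1 were 20.2% and 19.5% when thinned to 5000 UMIs and 55.3% and 53.5% without thinning, as more UMIs were read per cell.

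The number of cadherins past 1.5-fold between the libraries was 1 in IFE basal cells with the automatic threshold or with the listed genes kept among the variable genes, 1 in ORS without integration, and 2 in the Krt6a class with cell scores. It was 3 in IFE basal cells of at least 5000 UMIs and 3 there with at least 20 UMIs. In hair shaft it was 1 without doublet removal, with the automatic threshold, at resolution 1, in cells of at least 5000 UMIs and with cell scores, and 3 with at least 20 UMIs. Over all keratinocytes it was 0 with clusters weighted by control shares. The share of all genes past the limit at each of these settings is not given here. One value reversed: Dsc1 in the Krt6a class was -1.22 without integration. Counting the Rnf180 cluster as matrix, added after the data were seen, took Dsg4 out of the members higher in IRS than in matrix. The cause of these shifts was not tested. The Dsg3 value in IFE basal cells stayed between -0.74 and -0.59 and that of Dsg1a in ORS between -1.95 and -1.16 over the alternatives run. Counts under about 50 UMIs limit Dsc2, Dsg4 outside the follicle bulb and the members in the sebaceous gland and HF lineage.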
